A study of Mus musculus with 12 samples.

Results

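The effect of losing Lmna, the gene of lamins A and C of the nuclear lamina, was compared between striated muscle and cultured myoblasts of C57Bl/6 mice. For each gene, the knockout minus wild-type difference in muscle was reduced by the same difference in myoblasts, on the scale of log2(FPKM + 1). FPKM, the authors' unit, counts fragments scaled to transcript length and to the size of the library. A positive value means that the knockout value stood higher, relative to wild type, in muscle than in myoblasts. The comparison covers genes with at least 1 FPKM in both wild-type columns and above 0 in all 4 columns, which were 10127 of the 22552 genes in the table. A further 46 genes met the first condition and were left out because a knockout column listed them at 0.

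Of the 12 samples in the series, 7 entered these values: 2 of Lmna-knockout striated muscle, 2 of wild-type striated muscle, 2 of Lmna-knockout myoblasts and 1 of wild-type myoblasts of the Lmna litter. A second library of wild-type myoblasts, from the litter of the Lbr knockouts, served as an alternative control. Lbr encodes the lamin B receptor, and 2 Lbr-knockout samples of each tissue completed the series. Knockout and wild-type animals were littermates from heterozygous parents, per the series' design text. The wild-type muscle column covers 2 samples whose litters the labels leave unnamed, and the Lmna and Lbr knockouts share it. The alleles, ages and sexes of the animals and the muscle that was taken are unstated in these sources. The table holds a single column per group, so no group value has a replicate error, and the difference with the own-litter control has no test and no replicate check. The words rose, fell and changed are kept for genes past 2-fold, a distance of 1 in log2(FPKM + 1), a scale on which the change of weakly expressed genes is understated. The muscle and the myoblast libraries were made with different NuGEN kits, per the labels' protocols. Kit and tissue therefore cannot be told apart in levels, while each knockout shared its kit with its wild type.

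Lamins A and C line the inner face of the nuclear envelope and anchor chromatin and the links to the cytoskeleton. In people, LMNA mutations cause muscular dystrophies, cardiomyopathy, lipodystrophy and premature ageing. Myoblasts are the proliferating precursors that leave the cell cycle, switch on genes of the contractile apparatus and fuse into fibres, whereas most RNA of muscle comes from fibres already formed. In these bulk samples, fewer cells of a type and less RNA per cell cannot be told apart.

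Lmna itself checked the labels. It stood at 22.6 FPKM in knockout and 59.5 FPKM in wild-type muscle, and at 18.5 FPKM in knockout myoblasts, 147 FPKM in wild-type myoblasts of the same litter and 114 FPKM in those of the Lbr litter. It thus fell in both tissues, by 1.36 in muscle and by 2.92 in myoblasts on the log2 scale, and the knockout columns ended at similar levels. The difference of effects was 1.57 (1.21 with the wild type of the Lbr litter). Lmnb2, which encodes lamin B2, was at 3.59 FPKM in knockout and 9.13 FPKM in wild-type muscle, and at 6.49 FPKM in knockout and 6.63 FPKM in own-litter wild-type myoblasts, a difference of -1.11 (-1.35 with the other control). Emd, which encodes emerin of the inner nuclear membrane, had a difference of -0.77, and of -1.30 with the wild type of the Lbr litter. Lmnb1, for lamin B1, was at -0.43 and Lbr at 0.05. Sun2, which encodes an inner nuclear membrane protein that links lamins to the cytoskeleton, was at 0.74. Over the 21 lamina and envelope genes compared the median difference was 0.13, and Lmna and Lmnb2 alone reached 2-fold.

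The labelled tissues were read against their markers. Acta1, the skeletal muscle actin gene, was at 13887 FPKM in knockout and 17215 FPKM in wild-type muscle, against 32.5 FPKM in knockout and 52.6 FPKM in own-litter wild-type myoblasts. Des, the muscle intermediate filament gene, was at 18.7 FPKM in knockout myoblasts and at 32.9 and 23.3 FPKM in the wild-type libraries of the Lmna and the Lbr litter. Myod1, a myogenic transcription factor gene, was at 2.09 FPKM in knockout myoblasts and at 5.35 and 2.46 FPKM in the same wild-type libraries. Myf5 and Pax7, which mark muscle progenitors, were below 1 FPKM in these 3 myoblast columns. Macrophage genes were present in them. The 26 macrophage markers in the table summed to 1544 FPKM in knockout myoblasts, 1873 FPKM in own-litter wild-type myoblasts and 518 FPKM in those of the Lbr litter, and to 277 FPKM in knockout and 211 FPKM in wild-type muscle. The wild-type myoblast libraries differed from each other by 2-fold at 213 of the compared genes. Of these, 52 (0.513%) were higher and 161 (1.59%) lower in the Lbr litter, and values without a named control use the own-litter wild type. Judged by the steps between low values, a transcript of 2 kb at 1 FPKM was covered by roughly 3.72 fragments in knockout muscle, where the steps were poorly resolved, 8.15 in wild-type muscle, 24.6 in knockout myoblasts, and 32.4 and 34.0 in the wild-type myoblasts of the Lmna and Lbr litters. Low muscle values therefore rest on few fragments.

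Most genes that changed with Lmna loss did so in muscle alone or in myoblasts alone. Of the genes compared, 305 (3.01%) had a difference of 2-fold or more, 203 (2.0%) higher in muscle and 102 (1.01%) lower. The share that was higher, 66.6%, was 49.1% after quantile normalization of the columns. In muscle alone 100 genes (0.987%) rose and 45 (0.444%) fell, and in myoblasts 33 (0.326%) rose and 67 (0.662%) fell. Changes in both tissues were found at 12 genes: 7 changed the same way and 5 in opposite ways. Of all genes compared, 0.987% rose and 0.444% fell in muscle. The 12 made up a larger share than that of the genes that changed in myoblasts. Across genes Pearson's r between the effects was 0.02 and Spearman's rho 0.0004, a description over 10127 genes, which are not independent replicates. The plot of muscle against myoblast effects shows the values as a cross rather than along a diagonal.

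**Figure D1:**
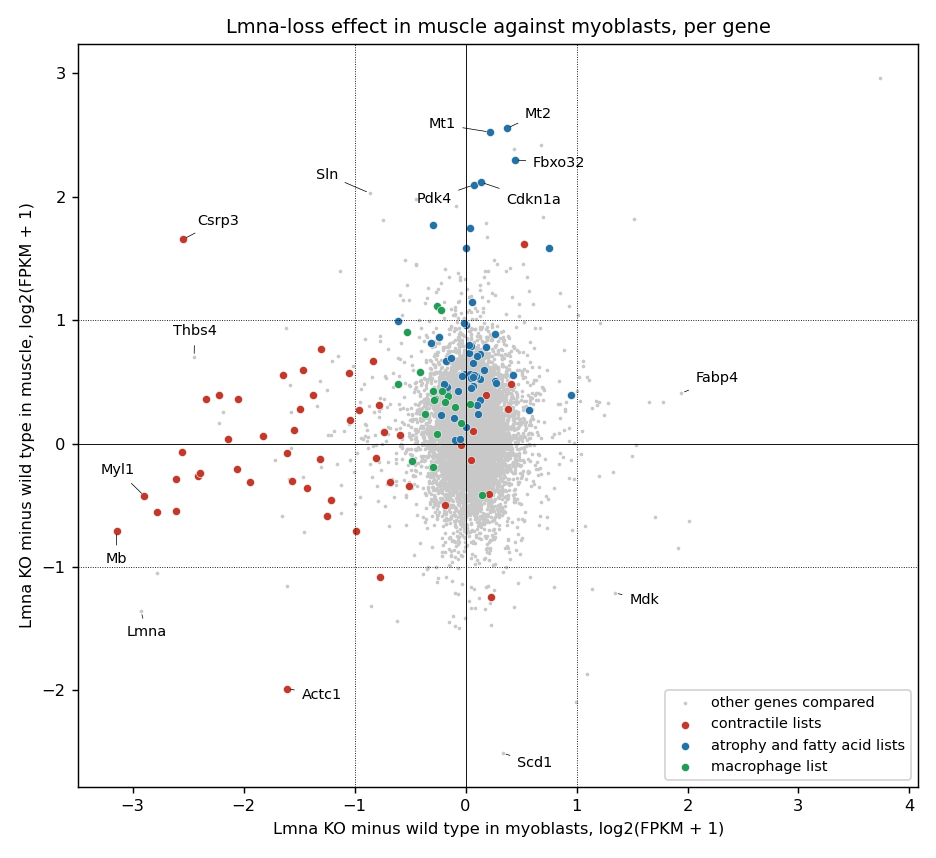
Knockout minus wild-type difference on log2(FPKM + 1) in muscle (vertical axis) and in myoblasts with the own-litter control (horizontal axis), 1 point per gene, with 2-fold marked by dotted lines. Contractile genes (red) spread to the left, and atrophy and fatty acid genes (blue) upward. Past 2-fold at the upper left lie Csrp3 (1.65 in muscle, -2.54 in myoblasts) and Cd74 (1.40 and -1.14).

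The 203 genes with a higher difference came about in several ways. In 75 the gene rose in muscle and did not change in myoblasts, in 52 it fell in myoblasts and did not change in muscle, and in 72 neither effect alone reached 2-fold. Of the 102 genes with a lower difference, 28 fell in muscle only, 13 rose in myoblasts only, and 58 changed in neither tissue alone. With the wild type of the Lbr litter as control, 895 genes (8.84%) differed, 398 (3.93%) higher and 497 (4.91%) lower. With either control 190 genes (1.88%) differed in the same direction, 109 (1.08%) higher and 81 (0.800%) lower. Of those 109, 40 rose in muscle only and 37 fell in myoblasts only. The median effect over all genes compared was 0.11 in muscle, 0.03 in myoblasts and 0.08 for the difference, and list medians are to be read against these. The difference lay above 0 at 5948 of the 10127 genes, and at 5295 with the wild type of the Lbr litter.

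**Figure D2:**
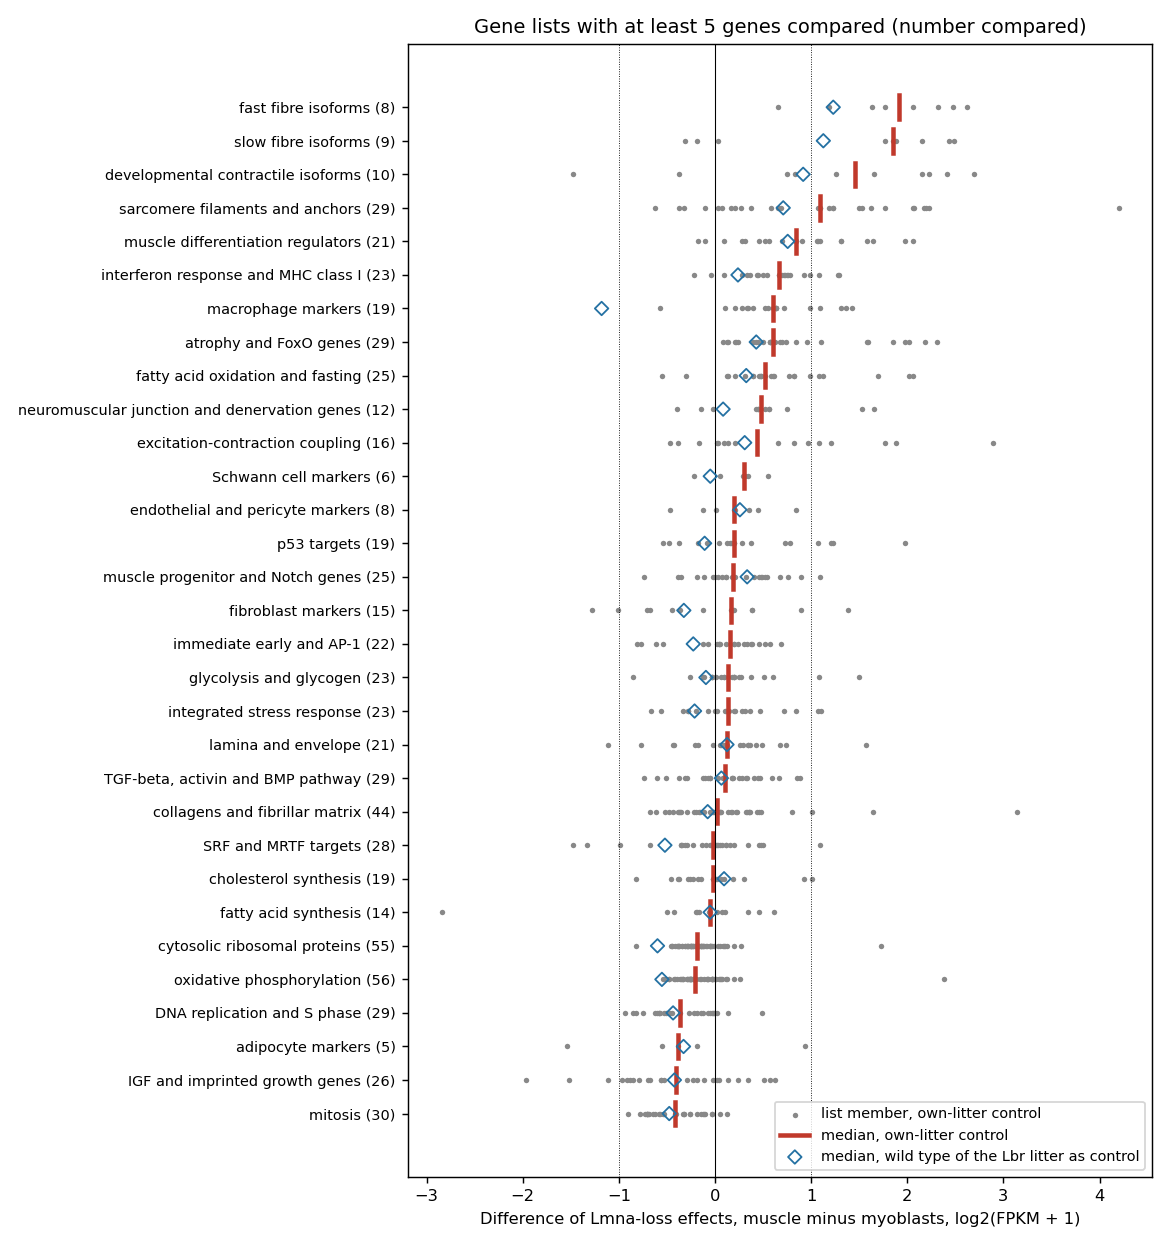
Difference of effects, muscle minus myoblasts, on log2(FPKM + 1) for the members of each list with at least 5 genes compared (grey points), the list median with the own-litter control (red bar) and with the wild type of the Lbr litter (blue diamond). With the own-litter control the contractile lists stand highest and the mitosis list lowest; with the other control macrophage, ribosomal, oxidative phosphorylation and SRF medians lie below mitosis. The macrophage median lies at 0.60 with the own-litter control and at -1.18 with the other.

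Contractile genes had the highest medians, with the own-litter control, among lists with at least 5 genes compared. Of the 52 genes compared from the 4 overlapping lists of sarcomere parts and of fast, slow and developmental fibre isoforms, 32 had a higher difference and 1 a lower one, with a median of 1.24. The values departed from wild type in myoblasts more than in muscle: the median effect was -0.04 in muscle and -1.30 in myoblasts. In muscle 2 rose and 3 fell, whereas in myoblasts 0 rose and 31 fell. Those 31 stood at a median of 13.0% of the own-litter wild-type FPKM in knockout myoblasts (range 2.27% to 32.0%) and at a median of 94.9% of wild-type FPKM in knockout muscle (range 25.3% to 317%). With the wild type of the Lbr litter as control, 23 of the 52 were higher and 3 lower, and the same 23 were higher with either control. Of the 31 genes that fell in myoblasts, 22 were also at least 2-fold below the other wild type. Over all genes compared, 106 (1.05%) lay at least 2-fold below that library in knockout myoblasts and 300 (2.96%) above it. The wild-type library of the Lbr litter lay below that of the Lmna litter at 49 of the 52 genes (median -0.51), so the size of the result depended on the control. Of the 74 genes on the lists 20 were below 1 FPKM in own-litter wild-type myoblasts and were not compared. The filter asked for 1 FPKM in the wild types and, in the knockouts, only for a value above 0. A gene rising from below 1 FPKM could not enter, so falls were favoured over rises at low levels. Over all genes compared, 33 (0.326%) rose and 67 (0.662%) fell in myoblasts.

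Csrp3, which encodes the muscle LIM protein of the Z-disc, had the largest difference of all genes compared, 4.198 (3.36 with the wild type of the Lbr litter). It was at 255 FPKM in knockout and 80.2 FPKM in wild-type muscle. In myoblasts it was at 0.13 FPKM in the knockout, 5.57 FPKM in the own-litter wild type and 2.68 FPKM in the other wild type. Csrp3 thus rose in muscle and fell in myoblasts. Ankrd1, which encodes a stretch-responsive ankyrin repeat protein of the sarcomere, also rose in muscle: 15.2 FPKM in knockout and 4.30 FPKM in wild-type muscle, but 71.2 FPKM in knockout and 49.2 FPKM in own-litter wild-type myoblasts. Its difference was 1.09 (0.97 with the other control).

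Among fast-fibre isoforms, 7 of the 8 genes compared had a higher difference (median 1.91, and 1.23 with the other control) and all 8 fell in myoblasts. All 14 on the list had at least 1 FPKM in wild-type muscle, with a median muscle effect of -0.35. Of these, 1 fell in muscle, Pvalb, at 4889 FPKM in knockout and 11835 FPKM in wild-type muscle. It was below 1 FPKM in own-litter wild-type myoblasts and was not compared. Myl1, which encodes an alkali light chain of fast fibres, was at 15323 FPKM in knockout and 20559 FPKM in wild-type muscle, and at 3.43 FPKM in knockout myoblasts, 32.0 FPKM in the own-litter wild type and 20.1 FPKM in the other. Tnnc2, the fast troponin C gene, was at 13849 FPKM in knockout and 16921 FPKM in wild-type muscle, and at 1.30, 13.0 and 6.75 FPKM in the same order of myoblast columns. Both were lower in knockout myoblasts than in either wild type, while in muscle the columns lay within 1.5-fold. Myh1, the fast myosin heavy chain IIX gene, had a difference of 2.62 and Mylpf, a fast regulatory light chain gene, of 2.06 (2.19 and 1.02 with the other control). Of the slow-fibre isoforms 6 of 9 were higher (median 1.85, and 1.13 with the other control). Myl2, chosen after its values were seen, fell in muscle, at 127 FPKM in knockout and 270 FPKM in wild-type muscle. Mb, which encodes myoglobin, was at 294 FPKM in knockout and 481 FPKM in wild-type muscle, and at 1.29 FPKM in knockout myoblasts, 19.2 FPKM in own-litter and 8.89 FPKM in other wild-type myoblasts. Tnnt1, the slow troponin T gene, had a difference of 2.49, Tnni1, the slow troponin I gene, of 2.15, and Casq2, the cardiac and slow calsequestrin gene, of 1.88.

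Developmental isoforms, made by new fibres, behaved like the others for 6 of 10 genes, with a median of 1.45 (0.92 with the other control). Myh3, the embryonic myosin heavy chain gene, was at 38.4 FPKM in knockout and 29.8 FPKM in wild-type muscle, and at 1.25 FPKM in knockout myoblasts, 10.4 FPKM in own-litter and 7.67 FPKM in other wild-type myoblasts (difference 2.70). Myh8, the perinatal heavy chain gene, had a difference of 2.41 and Myl4, an embryonic light chain gene, of 2.15. Actc1, cardiac alpha-actin, fell in both tissues: 1642 FPKM in knockout and 6501 FPKM in wild-type muscle, and 24.9 FPKM in knockout and 78.0 FPKM in own-litter wild-type myoblasts. Against the other wild type, at 36.7 FPKM, its myoblast effect was -0.54, less than 2-fold. Acta2, smooth muscle alpha-actin, was the gene with a lower difference (-1.47, or -2.12 with the other control). It was at 110.0 FPKM in knockout and 262 FPKM in wild-type muscle, and at 8757 FPKM in knockout, 7479 FPKM in own-litter and 4783 FPKM in other wild-type myoblasts.

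The sarcomere list, of filaments and anchors, had 16 of 29 genes with a higher difference and 0 lower, and a median of 1.09 (0.71 with the other control). Mybph, a myosin-binding protein gene, was at 2.23, Lmod2, for an actin filament nucleator, at 2.20 and Smpx, a small muscle protein gene, at 2.18. Of the 16, 9 were higher with either control. Restricted to genes with at least 5 FPKM in both wild types the list had 4 genes past 2-fold, and its median was 0.29, so most of its differences lie in genes of low level in myoblasts. Tpm1 and Tnnt3, for an alpha-tropomyosin and the fast troponin T, were chosen after their values were seen. They were listed at 0 in knockout myoblasts against 2905 and 20.8 FPKM in the own-litter wild type, and were left out because an exact 0 in a file without counts can be a failed estimate. Gnas, used by nearly all cells, was listed at 0 in the same column.

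**Figure D3:**
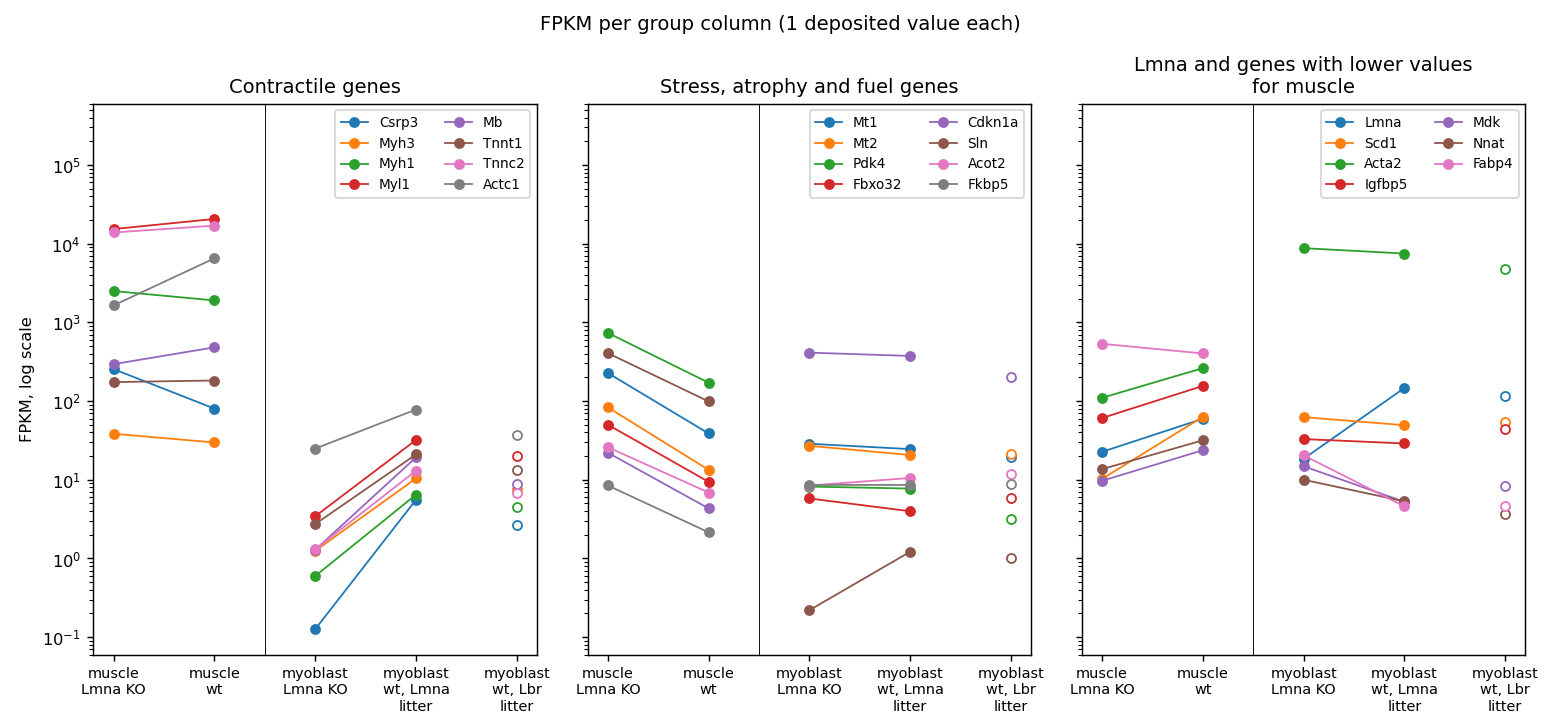
FPKM on a log scale in each group column, joined within a tissue from knockout to own-litter wild type, for 8 contractile genes (left), 8 stress, atrophy and fuel genes (middle), and Lmna with 6 genes of negative difference (right), with open circles for the wild-type myoblasts of the Lbr litter. In the left panel the lines slope in myoblasts and, apart from Csrp3 and Actc1, stay nearly level in muscle, whereas in the middle panel they slope in muscle.

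Promoter windows are shown for 3 of these genes, with and without a motif, because 22 contractile genes fell in myoblasts and had a higher difference with either control. The windows, from RefSeq on GRCm38.p6, run from 250 bases before to 50 bases after the annotated start, 5′ to 3′ on the gene's strand. Capitals mark CAGCTG, the E-box form bound by myogenic factors, and the MEF2 motif, both searched on both strands with the TATA box TATAAA and the CArG box. Myoz2, for a Z-disc calsarcin, lies at chr3:123034938-123035237 on the minus strand and holds an E-box and a MEF2 motif. Mylpf lies at chr7:127211358-127211657 on the plus strand and holds an E-box. Csrp3 has 2 windows, the first at chr7:48848002-48848301 on the minus strand, with none of the 4 motifs.
Myoz2: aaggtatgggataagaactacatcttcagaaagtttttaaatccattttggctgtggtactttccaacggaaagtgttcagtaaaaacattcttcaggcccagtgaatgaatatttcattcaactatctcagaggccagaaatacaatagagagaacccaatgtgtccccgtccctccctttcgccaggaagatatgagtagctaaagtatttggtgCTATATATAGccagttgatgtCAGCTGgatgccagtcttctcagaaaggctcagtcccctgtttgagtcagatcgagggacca
Mylpf: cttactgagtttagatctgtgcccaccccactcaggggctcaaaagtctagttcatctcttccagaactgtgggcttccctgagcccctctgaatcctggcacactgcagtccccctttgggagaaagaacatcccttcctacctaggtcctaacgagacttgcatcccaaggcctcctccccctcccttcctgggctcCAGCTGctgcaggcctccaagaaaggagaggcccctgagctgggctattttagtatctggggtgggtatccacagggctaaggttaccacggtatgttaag
Csrp3: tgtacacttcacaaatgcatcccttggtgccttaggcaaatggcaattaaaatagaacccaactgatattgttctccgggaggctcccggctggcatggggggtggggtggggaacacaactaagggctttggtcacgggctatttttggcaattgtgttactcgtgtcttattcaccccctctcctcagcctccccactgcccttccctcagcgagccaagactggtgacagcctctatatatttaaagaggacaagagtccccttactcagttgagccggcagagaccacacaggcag

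Of the 22 genes 21 had a window in the RefSeq table. CAGCTG was present for 11 of them (52.4%), against 18.3% of all 27025 genes in that table, and the MEF2 motif for 4 (19%) against 2.16%. The CArG box was found in 0 of the 21, against 1.81% of all genes. These are descriptions of letters in short windows, and the genes were chosen by their values.

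Regulators of muscle differentiation moved as the contractile genes did, to a smaller extent. Of 21 compared, 9 had a higher difference and 0 a lower one, with a median of 0.85 (0.76 with the wild type of the Lbr litter). Of these 9, 4 were higher with either control. They include Cdkn1a, described with the p53 targets, which alone of the 21 rose in muscle. Of the 28 list genes with at least 1 FPKM in wild-type muscle, 2 rose there. Popdc3, a membrane protein gene of striated muscle, had a difference of 2.06 and Kbtbd10, for a kelch protein of myofibril assembly, of 1.64. Cav3, the muscle caveolin gene, was at 92.8 FPKM in knockout and 102 FPKM in wild-type muscle, and at 0.38 FPKM in knockout, 3.55 FPKM in own-litter and 1.56 FPKM in other wild-type myoblasts. Myog, the myogenic factor that drives terminal differentiation, was chosen after its values were seen. It was at 28.7 FPKM in knockout and 42.9 FPKM in wild-type muscle, and at 2.89 FPKM in knockout, 7.47 FPKM in own-litter and 2.94 FPKM in other wild-type myoblasts. Its difference was 0.56 with the own-litter control and -0.54 with the other, so its direction turned with the control. The 25 progenitor and Notch genes had a median of 0.19 with 1 higher, Des. The other large members were Cd34, a progenitor surface protein gene (0.90), Hes1, a Notch target gene (0.76), and Id1, an inhibitor of myogenic factors (-0.74).

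Genes that couple excitation to contraction gave a divided picture. Of 16 compared 5 had a higher difference and 0 a lower one (median 0.43, and -0.07 among those with at least 5 FPKM in both wild types). Sln, which encodes sarcolipin, an inhibitor of the calcium pump, was at 406 FPKM in knockout and 98.9 FPKM in wild-type muscle. It was at 0.22 FPKM in knockout, 1.22 FPKM in own-litter and 1.03 FPKM in other wild-type myoblasts, so its difference of 2.89 came mainly from a rise in muscle. Atp2a1, the calcium pump of fast fibres, was at 4709 FPKM in knockout and 3874 FPKM in wild-type muscle, and at 0.59 FPKM in knockout and 3.46 FPKM in own-litter wild-type myoblasts, so its difference of 1.77 came from a fall in myoblasts. Cacng1, a subunit gene of the fibre's calcium channel, had a difference of 1.21 that was 0.15 with the other control. Among 12 genes of the neuromuscular junction 2 were higher (median 0.48), and with the other control 1 was higher (median 0.08). The 2 were the acetylcholine receptor subunit genes Chrna1 (1.65, and 1.14 with the other control) and Chrnd (1.53, and 0.77), which fell in myoblasts and were within 0.11 of the wild type in muscle. The fetal receptor subunit gene Chrng (0.75) and Rapsn, for the receptor-clustering protein (0.56), differed by less than 2-fold between tissues.

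The list of atrophy genes and targets of FoxO, the transcription factors active in fasting and wasting muscle, had 29 genes compared, of which 8 had a higher difference and 0 a lower one (median 0.60). All 29 lay above the wild type in muscle, with a median effect of 0.59, and 6 rose; of all genes compared, 6492 of 10127 lay above it. In myoblasts the median was 0.03 and 0 changed with the own-litter control, while against the other wild type the median was 0.18 and 2 rose, Pdk4 and Cdkn1a. With the wild type of the Lbr litter 8 were higher, 25 of 29 lay above 0 and the median was 0.43. Of all 10127 genes compared, 398 (3.93%) were higher with that control and 5295 lay above 0. With either control 7 of the 29 were higher.

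Fbxo32, which encodes atrogin-1, the ubiquitin ligase of wasting muscle, was chosen after its values were seen. It was at 50.1 FPKM in knockout and 9.41 FPKM in wild-type muscle, and at 5.78 FPKM in knockout, 3.98 FPKM in own-litter and 5.94 FPKM in other wild-type myoblasts. Pdk4, the kinase that spares glucose by blocking pyruvate oxidation, was at 734 FPKM in knockout and 171 FPKM in wild-type muscle, and at 8.20, 7.73 and 3.19 FPKM in the same order of myoblast columns. Both rose in muscle alone with the own-litter control, with differences of 1.85 and 2.02 (2.33 and 0.96 with the other control). Trim63, which encodes MuRF1, the other well-known ligase of wasting, was at 73.3 FPKM in knockout and 49.2 FPKM in wild-type muscle. It was not compared because it stood at 0.52 FPKM in own-litter wild-type myoblasts. Fkbp5, a glucocorticoid-induced gene chosen after its values were seen, was at 8.46 FPKM in knockout and 2.15 FPKM in wild-type muscle, and between 8.60 and 8.75 FPKM in the 3 myoblast columns.

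The metallothionein genes Mt1 and Mt2, whose proteins bind zinc and copper, belonged to the same list. Mt1 was at 227 FPKM in knockout and 38.8 FPKM in wild-type muscle, and at 28.7 FPKM in knockout, 24.5 FPKM in own-litter and 19.6 FPKM in other wild-type myoblasts. Mt2 was at 83.2 FPKM in knockout and 13.4 FPKM in wild-type muscle, and at 27.0, 20.6 and 21.1 FPKM in the same order of myoblast columns. They had among the highest muscle effects, 2.52 and 2.55, with differences of 2.30 and 2.18. Both are neighbours on mouse chromosome 8, and their windows are printed because the genes moved together. Capitals mark TGCNCNC on either strand. This pattern is looser than the core of the metal response element, which has A or G at the fourth base. Not every marked stretch in Mt2 fits that core. Mt1 at chr8:94178839-94179138 holds 3 matches and Mt2 at chr8:94172368-94172667 holds 6, both on the plus strand of GRCm38.p6.
Mt1: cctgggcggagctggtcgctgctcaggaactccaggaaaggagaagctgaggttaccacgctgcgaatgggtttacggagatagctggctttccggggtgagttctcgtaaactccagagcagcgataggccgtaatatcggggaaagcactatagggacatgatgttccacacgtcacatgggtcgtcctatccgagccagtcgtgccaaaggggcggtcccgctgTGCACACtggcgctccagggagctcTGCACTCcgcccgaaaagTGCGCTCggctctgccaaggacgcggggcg
Mt2: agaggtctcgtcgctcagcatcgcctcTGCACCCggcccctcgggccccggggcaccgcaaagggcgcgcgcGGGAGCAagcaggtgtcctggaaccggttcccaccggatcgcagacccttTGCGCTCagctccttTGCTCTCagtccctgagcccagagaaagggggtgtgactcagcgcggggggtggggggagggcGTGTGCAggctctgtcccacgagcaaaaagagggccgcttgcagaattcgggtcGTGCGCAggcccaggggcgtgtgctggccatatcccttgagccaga

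The looser pattern is short and was present for 53.6% of all genes in the RefSeq table. It was present for 14 of the 25 matched genes that rose in muscle only with a higher difference under either control (56%). Of the same 25 genes, CAGCTG was present for 6 (24.0%) and the MEF2 motif for 1 (4%).

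All 25 fatty acid oxidation genes compared lay above the wild type in knockout muscle, with a median effect of 0.56, and 5 rose. Of all genes compared, 6492 of 10127 lay above it and 100 (0.987%) rose. In myoblasts the list median was 0.07 and 0 of its genes changed with the own-litter control. Against the other wild type the myoblast median was 0.27 and 3 rose. The difference was higher for 5, lower for 0 and had a median of 0.52 (0.33 with the other control, with 3 higher and 1 lower). Acot2, a mitochondrial acyl-CoA thioesterase gene, was at 25.9 FPKM in knockout and 6.88 FPKM in wild-type muscle, and at 8.44, 10.5 and 12.0 FPKM in knockout, own-litter and other wild-type myoblasts. Acot1, its cytosolic neighbour gene, had a difference of 1.70, and Ucp2, an uncoupling protein gene, of 1.13. The 2 Acot genes are close in sequence, and reads could have been split between them. Slc27a1, a fatty acid transporter gene outside the list and chosen after its values were seen, was at 49.0 FPKM in knockout and 14.7 FPKM in wild-type muscle, and had a difference of 1.48.

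Other metabolic groups had medians nearer 0 with the own-litter control. Of 56 oxidative phosphorylation genes 1 was higher, Cox6a2, the muscle isoform of a cytochrome oxidase subunit, with a difference of 2.38. It was at 456 FPKM in knockout and 407 FPKM in wild-type muscle, and at 0.18 FPKM in knockout, 4.49 FPKM in own-litter and 3.11 FPKM in other wild-type myoblasts. The median of the list was -0.20, and -0.55 with the other control, with 7 genes lower and 3 of 56 above 0. Of all 10127 genes compared, 497 (4.91%) were lower with that control and 5295 lay above 0. With the own-litter control 0 of the 56 were lower, with the subunit genes Cox8a (-0.55), Ndufs6 (-0.52) and Cox5a (-0.51) the lowest of the list. The glycolysis and glycogen list had a median of 0.14, with 2 of 23 higher: Pfkfb1, for a bifunctional regulator of glycolysis (1.49), and Pygm, the muscle glycogen phosphorylase gene (1.08). Pfkm, the muscle phosphofructokinase gene, was at -0.85 and the glycogen synthase gene Gys1 at 0.61. Ribosomal protein genes had a median of -0.19 with 1 of 55 higher, Rpl26 (1.73), which fell in both tissues and has pseudogene copies that make its value uncertain. With the other control the ribosomal median was -0.60, 3 genes were lower and 2 of 55 lay above 0. Rpl30 (-0.83, and -2.99 with the other control), Rps2 (-0.46) and Rps28 (-0.45) followed it in size.

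Scd1, the desaturase gene that makes monounsaturated fatty acids, fell in muscle and not in myoblasts. It was at 10.3 FPKM in knockout and 63.0 FPKM in wild-type muscle, and at 62.4 FPKM in knockout, 49.3 FPKM in own-litter and 53.7 FPKM in other wild-type myoblasts, a difference of -2.84 (-2.72 with the other control). Scd2, a related desaturase gene, was at 0.46, the elongase gene Elovl5 at 0.62 and the desaturase gene Fads2 at -0.50. Of the 14 fatty acid synthesis genes compared Scd1 alone changed, and the list median was -0.05. In muscle alone, 1 of the 16 genes on the list rose and 2 fell. Besides Scd1 these were Thrsp, at 14.7 FPKM in knockout and 47.2 FPKM in wild-type muscle, and Acacb, at 37.1 and 17.7 FPKM. Both were below 1 FPKM in own-litter wild-type myoblasts and were not compared. Fabp4, the fatty acid carrier of adipocytes, was at 534 FPKM in knockout and 402 FPKM in wild-type muscle, and at 20.5 FPKM in knockout, 4.58 FPKM in own-litter and 4.67 FPKM in other wild-type myoblasts. Its difference of -1.54 thus came from a rise in myoblasts. Summed over the 20 adipocyte markers in the table, levels were 1395 FPKM in knockout and 925 FPKM in wild-type muscle, and 78.9 FPKM in knockout, 36.3 FPKM in own-litter and 36.6 FPKM in other wild-type myoblasts, where 2, 7 and 8 of them were at 0. The members did not move alike in muscle: of the 18 with at least 1 FPKM in wild-type muscle 2 rose and 3 fell, and the median effect was -0.09. Their part in the Fabp4 value was not tested. Ucp1, the uncoupling protein gene of brown fat, was at 1.23 FPKM in knockout and 67.8 FPKM in wild-type muscle, and Cidea, a lipid droplet gene of brown fat, at 1.71 FPKM in knockout and 15.5 FPKM in wild-type muscle, both chosen after their values were seen. Over all 13 brown fat markers, levels summed to 5367 FPKM in knockout and 4384 FPKM in wild-type muscle. Most of both sums came from Cox8b (2375 and 1728 FPKM), Cox7a1 (1596 and 1643 FPKM) and Fabp3 (1255 and 856 FPKM). Of the 11 markers with at least 1 FPKM in wild-type muscle 1 rose, and 2, Ucp1 and Cidea, fell. The part of these markers in the lower Scd1 level was not tested. In the cholesterol synthesis list, 1 of 19 was higher, Mvd, for an enzyme of the mevalonate pathway (1.01), and the median was -0.03. Gamt and Gatm, the enzymes of creatine synthesis, were chosen after their values were seen. Gamt was at 41.8 FPKM in knockout and 118 FPKM in wild-type muscle and Gatm at 19.1 FPKM in knockout and 49.7 FPKM in wild-type muscle, with differences of -1.38 each (-1.43 and -0.98 with the other control).

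Cell cycle genes had negative differences below 2-fold. Of the 30 mitosis genes compared 0 reached 2-fold, 28 lay below 0 and the median was -0.42. With the other control the median was -0.48, with 1 gene higher and 4 lower. All 30 were below the wild type in knockout muscle, with a median effect of -0.58, and the median was -0.17 in myoblasts. Of all genes compared, 6492 of 10127 lay above the wild type in muscle, and 5948 had a difference above 0. Top2a, the topoisomerase of dividing cells, was at 3.62 FPKM in knockout and 8.76 FPKM in wild-type muscle, and at 82.4 FPKM in knockout, 93.0 FPKM in own-litter and 130 FPKM in other wild-type myoblasts. Aurkb (-0.78), Cenpa (-0.73) and Cdk1 (-0.71), which encode a mitotic kinase, the centromeric histone and the main mitotic cyclin-dependent kinase, followed. The summed level of the list was 66.1 FPKM in knockout and 119 FPKM in wild-type muscle, so these muscle values rest on few fragments each. The 29 replication genes had a median of -0.37 and 0 past 2-fold with the own-litter control, with Gins1 at -0.94, Mcm2 at -0.86, Prim1 at -0.82 and Rfc3 at -0.75, all of them parts of the replication machinery.

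The p53 and stress lists had few changes. Cdkn1a, the cell cycle inhibitor p21, was at 22.1 FPKM in knockout and 4.33 FPKM in wild-type muscle, and at 412 FPKM in knockout, 374 FPKM in own-litter and 205 FPKM in other wild-type myoblasts. It rose in muscle with no change in myoblasts against the own-litter control, and its difference was 1.98 (1.11 with the other control). Of 19 p53 targets 4 were higher, Cdkn1a, the death receptor gene Fas (1.23), Sesn1, for a nutrient sensor (1.21), and the receptor gene Eda2r (1.07). With the other control 1 was higher, Cdkn1a, and these were at 0.74, 0.99 and 0.96. The list median was 0.19, and -0.11 with the other control. The integrated stress response list had a median of 0.14, and of -0.21 with the other control. Of its 23 genes 2 were higher, Ddit4, an inhibitor of mTOR signalling (1.11), and the lipoprotein receptor gene Vldlr (1.07), both also with the other control. Cebpb, a transcription factor gene, was at 0.85, and Chac1, a glutathione-degrading enzyme gene, turned to -2.13 with the other control, being at 17.3 FPKM in knockout, 18.5 FPKM in own-litter and 1.70 FPKM in other wild-type myoblasts.

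Among matrix genes, Thbs4, which encodes thrombospondin 4 of tendon and muscle, had the second highest difference, 3.15. It was at 51.1 FPKM in knockout and 31.1 FPKM in wild-type muscle, and at 4.25 FPKM in knockout, 27.6 FPKM in own-litter and 19.4 FPKM in other wild-type myoblasts. It thus fell in myoblasts below both wild types. Prg4, for lubricin, was at 1.52 FPKM in knockout and 1.12 FPKM in wild-type muscle, and at 1.05, 8.30 and 9.0 FPKM in the same order of myoblast columns (difference 2.44). The 44 collagens and matrix genes had a median of 0.02 and 3 higher, Thbs4, the elastin gene Eln (1.64, and 0.85 with the other control) and the collagen gene Col11a1 (1.01). Lox, the collagen cross-linking oxidase gene, was at 0.80. Of 29 genes of the TGF-beta, activin and BMP pathways 0 reached 2-fold with the own-litter control, and the median was 0.10. Their largest values were 0.88 for the co-receptor gene Tgfbr3, 0.85 for Ltbp1, which encodes a binding protein of latent TGF-beta, and 0.67 for the ligand gene Bmp6.

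Growth and cytoskeletal targets included several lower differences. Igfbp5, an insulin-like growth factor binding protein gene, was at 60.9 FPKM in knockout and 156 FPKM in wild-type muscle, and at 32.9 FPKM in knockout, 28.9 FPKM in own-litter and 44.5 FPKM in other wild-type myoblasts, a difference of -1.52 that was -0.91 with the other control. Nnat, an imprinted gene for a small membrane protein, was at -1.96 and Ndn, the imprinted gene for necdin, at -1.11. These 3 were the genes past 2-fold among 26 growth genes with the own-litter control, where the median was -0.41. With the other control 5 were lower and 1 higher. Slc38a4, an imprinted amino acid transporter gene, was at -0.97. Of 28 targets of SRF, the factor coupled to actin dynamics, Ankrd1 was higher, and Acta2 and Myl9, a smooth muscle light chain gene (-1.33), were lower. Mkl1, for the SRF coactivator, was at -0.99. The list median was -0.02 with the own-litter control and -0.52 with the other. The immediate early genes had a median of 0.15 with 0 of 22 past 2-fold, and a median of -0.23 with 3 lower with the other control. Egr1 was at -0.77 and Fos at -0.61, and with the other control at -1.74 and -1.62. Nr4a1 was at -0.81 and Zfp36 at 0.69.

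Values of leukocyte genes changed with the control. Of 19 macrophage genes compared 4 were higher, Ctss (1.43), Ptprc (1.37), Laptm5 (1.31) and Emr1 (1.09), with a list median of 0.60, while with the other wild type 0 were higher, 12 were lower and the median was -1.18. In the muscle columns alone, the 15 neutrophil markers summed to 240 FPKM in knockout and 73.0 FPKM in wild-type muscle, and the 20 lymphocyte markers to 137 FPKM in knockout and 44.6 FPKM in wild-type muscle. Of these, 1 neutrophil and 3 lymphocyte markers could be compared with myoblasts, where in the wild types 4 to 6 of the neutrophil and 7 to 9 of the lymphocyte markers were at 0. The 3 lymphocyte-list genes compared, Cd74, Ccl5 and Coro1a, had differences of 2.53, 2.01 and 1.90, and of 1.13, 0.57 and 0.05 with the other control. Cd74, the invariant chain of antigen presentation, was at 38.5 FPKM in knockout and 14 FPKM in wild-type muscle, and at 1.62 FPKM in knockout, 4.76 FPKM in own-litter and 1.18 FPKM in other wild-type myoblasts. The chemokine gene Ccl6 had a difference of 2.55 (1.30) and S100a4, a calcium-binding protein gene of migrating cells, of 2.55 (1.54), the values in brackets with the other control. S100a4 was at 61.3 FPKM in knockout and 16.8 FPKM in wild-type muscle, and at 634 FPKM in knockout, 1060 FPKM in own-litter and 526 FPKM in other wild-type myoblasts. The part of leukocytes in these values was not tested. The 23 interferon genes had a median of 0.67 with 3 higher, Tap1 (1.29), Oasl2 (1.28) and Ifi47 (1.08), and a median of 0.24 with 0 higher with the other control. Rtp4 was at 0.98.

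Markers of further cell types were set beside these. Fibroblast markers had 1 of 15 higher, Ly6a (1.38), and 2 lower, Thy1 (-1.28) and Mfap4 (-1.01), with a median of 0.17 that was -0.32 with the other control. The 6 Schwann cell genes compared had a median of 0.30, and of -0.05 with the other control, and the 8 endothelial and pericyte genes one of 0.20, with 0 past 2-fold in each with the own-litter control. Of the 12 erythroid markers 0 could be compared. The 14 pancreas acinar markers summed to 3.04 FPKM in knockout and 25.9 FPKM in wild-type muscle, where 7 and 2 of them were at 0, and their part in the muscle effects was not tested. Sex-linked genes were unlike between columns: Xist was at 11.4 FPKM in knockout and 0.02 FPKM in wild-type muscle, and at 22.1 FPKM in knockout, 6.67 FPKM in own-litter and 0.01 FPKM in other wild-type myoblasts. Ddx3y, a Y-linked gene, was detected in each of these columns, at 27.5 FPKM in knockout and 19.5 FPKM in wild-type muscle, and at 8.90 FPKM in knockout, 8.0 FPKM in own-litter and 21.4 FPKM in other wild-type myoblasts. The part of sex in the values was not tested.

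Further genes outside these lists were among the 12 lowest differences under either control. The histone gene Hist2h2bb (-2.64) shares sequence with other loci, which leaves its value uncertain. Mdk, which encodes the growth factor midkine, fell in muscle and rose in myoblasts: 9.70 FPKM in knockout and 23.7 FPKM in wild-type muscle, and 14.8 FPKM in knockout, 5.24 FPKM in own-litter and 8.42 FPKM in other wild-type myoblasts (difference -2.55). S100a7a (-2.30) and Mnd1, for a meiotic recombination protein (-1.74), rose in myoblasts only. Pmp2, a myelin lipid carrier gene (-1.76), Hdhd3 (-1.70) and Cish, an inhibitor of cytokine signalling (-1.61), fell in muscle only. Ccdc85b (-1.60) rose in myoblasts only, and Crispld2 (-1.66) reached 2-fold in neither tissue alone. Most of these were below 10 FPKM in at least 1 column.

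The 7 genes that changed the same way in both tissues were Lmna, Actc1 and Rpl26, already described, with Atp6v0c-ps2, Plac9, Snora31 and Gm7325, all chosen after their values were seen. Atp6v0c-ps2, a pseudogene that shares sequence with its parent gene, was at 45.8 FPKM in knockout and 5.0 FPKM in wild-type muscle, and at 53 FPKM in knockout, 3.05 FPKM in own-litter and 4.24 FPKM in other wild-type myoblasts. Plac9, a small secreted protein gene, was at 145 FPKM in knockout and 69.7 FPKM in wild-type muscle, and at 47.3 FPKM in knockout, 22.9 FPKM in own-litter and 13.3 FPKM in other wild-type myoblasts. In both genes each knockout column was above every wild-type column of its tissue.

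**Figure D4:**
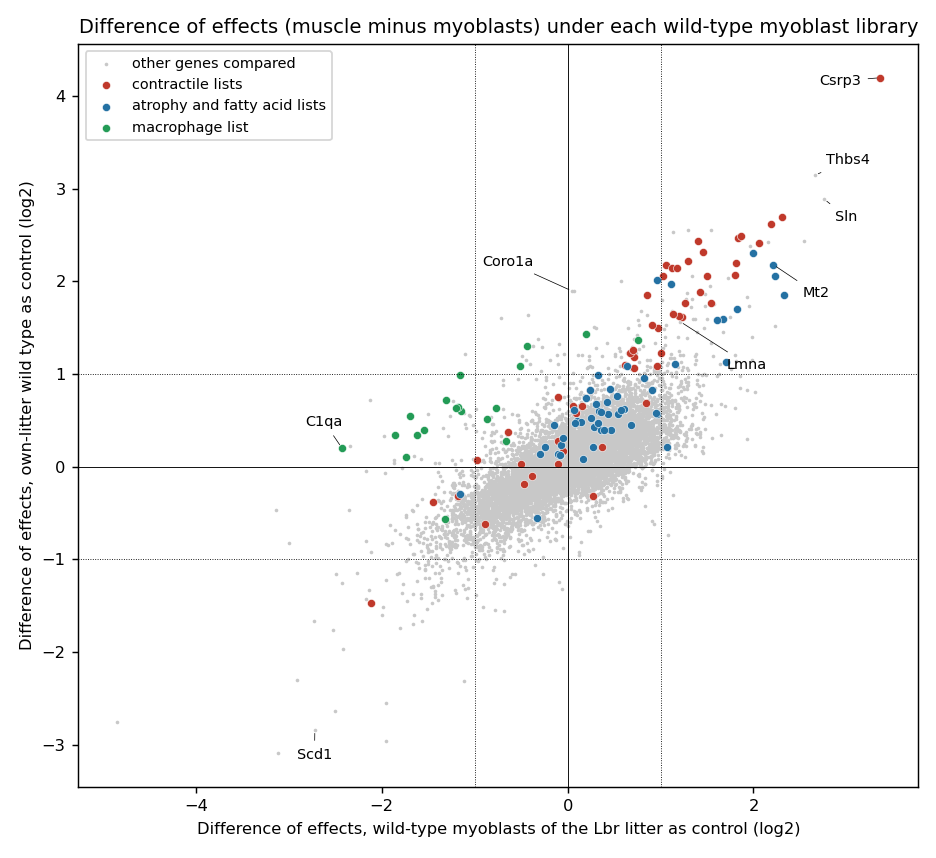
Difference of effects, muscle minus myoblasts, with the own-litter control (vertical axis) against the same difference with the wild-type myoblasts of the Lbr litter (horizontal axis), 1 point per gene and 2-fold marked by dotted lines. The axes share the knockout and muscle columns, so the points lie near a diagonal by construction, while macrophage genes (green) lie to its left.

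The Lbr knockouts give the same difference for another lamina gene. It shares the wild-type muscle column with the Lmna values and uses the wild-type myoblasts of the Lbr litter. For the 52 contractile genes the median difference was 1.24 for Lmna loss and -1.30 for Lbr loss. Csrp3 was at 4.198 for Lmna and -1.76 for Lbr loss, Myl1 at 2.47 and -1.81, and Mb at 2.44 and -2.30. For the atrophy list the medians were 0.60 and 0.06, and for fatty acid oxidation 0.52 and -0.08. The macrophage medians were 0.60 and -1.17. With the wild-type myoblasts of the Lbr litter as control for both knockouts, the macrophage median for Lmna loss was -1.18. With that control the Lmna medians were 0.88 for the contractile genes, 0.43 for the atrophy list and 0.33 for fatty acid oxidation. Within the atrophy list, the Lbr differences were 0.88 for Mt1, 1.21 for Mt2, 0.62 for Fbxo32 and -0.45 for Pdk4. Some genes that rose in Lmna-knockout muscle also rose in Lbr-knockout muscle, against the same wild-type column. They included Mt1 (1.07), Mt2 (1.19), Sln (1.39), S100a4 (1.30), Ccl5 (2.31) and Coro1a (1.76). Pdk4 (0.06), Acot2 (0.32) and Cdkn1a (0.72) did not reach 2-fold in Lbr-knockout muscle. Of the genes that changed in both tissues, Cd74 was at 2.15 and Atp6v0c-ps2 at 1.88 in Lbr-knockout muscle. Plac9, Snora31 and Csrp3, which also rose in Lmna-knockout muscle, were at 0.07, -0.05 and -0.72 there. The differences between the knockouts were not tested, and each rests on a single wild-type myoblast library.

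The difference of effects could be given an error in a single way, by treating both wild-type myoblast libraries as 1 group. In that limma fit across all genes, 31 of 10127 passed an adjusted p of 0.05 (Benjamini-Hochberg), 20 higher and 11 lower, and 397 had an unadjusted p under 0.05. Csrp3 had a difference of 3.78 ± 0.50 (SE, adjusted p 3.5e-10 in limma), Fbxo32 of 2.09 ± 0.49 (adjusted p 0.011) and Scd1 of -2.78 ± 0.56 (adjusted p 5.3e-04). All of them also differed by 2-fold with either control, and 7 of them belonged to the contractile lists. The error comes from 1 residual degree of freedom per gene, between libraries of different litters, with an infinite prior weight, so that the variance is shared over genes and treated as known. The p-values depend on that, and the knockout and muscle columns are assumed to vary like those libraries, so it measures no spread among knockout animals.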

How the data were processed

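RNA was sequenced from striated muscle and cultured myoblasts of Lmna-knockout, Lbr-knockout and wild-type C57Bl/6 mice. The values are FPKM calculated by the authors and deposited as 1 column per group, 7 in all. The 4 knockout columns and the wild-type muscle column stand for 2 samples each, and each wild-type myoblast column for 1. The build mm9 is listed, per the submitters' processing notes. The sources used here do not name the aligner, the annotation or how samples were merged. All 7 columns matched a group by name, with 0 left over.

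Effects were computed as differences of log2(FPKM + 1), hence with a pseudocount of 1, for genes holding at least 1 FPKM in both wild-type columns. Genes just inside that limit were Plxnb1 (1.0005 FPKM in wild-type muscle) and Ptpn18 (1.0006 FPKM in wild-type myoblasts), and just outside Etv4 (0.9997 FPKM) and Degs2 (0.9998 FPKM). The members and the 40 gene lists, with 9 unmatched names, were chosen with earlier results of these data known. Named by rule were the 12 highest and 12 lowest genes with either control, without small RNAs, predicted genes and pseudogenes, the 5 highest and lowest with the own-litter control, 5 lamina genes, and up to 4 genes per list by size of difference. The fit used limma 3.58.1 in R 4.3.3 and was tested on simulated data. The simulated noise was smaller than the spread between the wild-type myoblast libraries (SD of their difference 0.41). That test therefore says nothing of the fit at the noise of these data. Other steps used Python 3.11.15, with pandas 2.3.3. Total counts are unknown, and the fragments per FPKM were estimated from 4179 single-transcript genes. Alternatives were other pseudocounts, filters, normalizations and controls. A gene that the rule names is not reported here.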

Additional observations from a re-analysis of the deposited data

Results flagged for a closer look

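At 5 genes the effect was at least 2-fold in muscle and at least 2-fold in the opposite direction in myoblasts, with the own-litter control. With that control the difference was not tested, since each group has a single column. With both wild-type myoblast libraries as 1 group, the limma fit gave adjusted p-values of 3.5e-10 for Csrp3, 3.8e-04 for Snord16a, 0.0036 for Mdk, 0.048 for Cd74 and 0.090 for Snora23, from a variance shared over all genes. Csrp3 (difference 4.198) and Cd74 (2.53) were higher in knockout muscle and lower in knockout myoblasts than in wild type. Mdk (-2.55) and the small nucleolar RNAs Snora23 (-2.31) and Snord16a (-2.97) were lower in knockout muscle and higher in knockout myoblasts. With the wild-type myoblasts of the Lbr litter as control, Csrp3 alone kept a myoblast effect of 2-fold or more, -1.71. The myoblast effect was then 0.26 for Cd74, 0.75 for Mdk, -0.06 for Snora23 and 0.09 for Snord16a. Both small nucleolar RNAs were below 10 FPKM in these 5 columns.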

How the results depend on the processing

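Of the genes compared 305 differed by 2-fold between tissues, 145 changed in muscle and 100 in myoblasts. These counts were 542, 318 and 154 with a pseudocount of 0.1; 102, 56 and 27 with a pseudocount of 5; and 124, 59 and 41 with at least 5 FPKM in both wild types. With a filter on the mean of the 4 columns 242 genes changed in muscle, and without a filter 265, with 501 differing between tissues. With the wild type of the Lbr litter 895 differed and 406 changed in myoblasts. The limma fit called 31. The count of sarcomere genes past 2-fold was 16, all higher. It was 4 with a pseudocount of 5 and with the 5 FPKM filter, and 10 with quantile normalization and with the other wild type, for which 9 were higher and 1 lower. Of the genes that differed, 66.6% were higher in muscle. That share was 56.8% after centring, 49.1% after quantile normalization, 44.5% with the other wild type and 47.8% with both. Among 288 recomputed values of 30 named genes 279 were labelled the same, 4 lost 2-fold, 2 gained it and 3 moved. Among 314 recomputed medians of 32 lists 220 were labelled the same, 82 moved, 10 lost 2-fold and 2 gained it. A value past 2-fold was labelled the same if it stayed past 2-fold in that direction, whatever its size. A value within 2-fold was labelled the same if it stayed there and shifted by less than the other wild type shifted it. Medians turned in sign with the other wild type for the p53, stress, glycolysis, cholesterol, collagen, immediate early, macrophage, Schwann and fibroblast lists, and the cause was not tested. No paired analysis was possible because each group has a single column, so the replicate block and the omission of each replicate were not run. Low muscle values rest on few fragments, which limits differences of genes near 1 FPKM.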
